A study of Mus musculus with 4 samples.

Results

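The genes described here are 5 receptor tyrosine kinases, Kit, Ret, Met, Mst1r and Ddr1, and Kitl, which encodes the ligand of KIT. They were chosen by symbol, and all 6 were listed in every library, among 17762 genes listed in at least 1 library. The choice was made with their levels in these same libraries known, so each difference between the genotypes is given for them as a description without a test. All mice, KO and WT alike, carried ApcMin, a truncating allele of the tumour suppressor Apc that makes mice grow intestinal adenomas, were of the C57BL/6 strain and were 110 days old. The labels give 2 libraries as ApcMin Strap KO, which the study's design text calls StrapIEKO, and 2 libraries as ApcMin Strap WT. No source used here gives the driver of the deletion or the deleted part of Strap. None states whether each library came from a separate animal, though the sex-linked genes below differed between the 2 libraries of each genotype. Polyadenylated RNA was read as paired ends of 100 bases.

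Receptor tyrosine kinases span the cell membrane, bind a ligand outside the cell and phosphorylate one another's tails, which then recruit adaptor proteins that feed the RAS, ERK and PI3K pathways. In the mouse gut KIT is known from mast cells, from the interstitial cells of Cajal that pace the muscle, and from secretory cells of the crypt base. RET is best known for building the enteric nervous system, with GFRA proteins as co-receptors for ligands of the GDNF family. MET binds hepatocyte growth factor, MST1R (also called RON) binds the related macrophage-stimulating protein, and DDR1 binds collagen. MET and MST1R are close relatives of each other and are made by epithelial cells, while their ligands come mainly from other cells.

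Total expected counts were 15640941 and 14084831 in KO and 15422957 and 15255237 in WT. Strap was at 20.5 and 24.8 CPM in KO replicates 1 and 2, against 157 and 112 CPM in WT replicates 1 and 2, where CPM gives a gene's count relative to the TMM-scaled total of its library. Replicate 1 of each genotype held Xist, at 197 CPM in KO and 968 CPM in WT, and replicate 2 of each held the Y-linked gene Ddx3y, so sex was balanced between the genotypes. The tissue is labelled colon adenoma, while the colon genes Car1, Aqp8, Hoxb13, Hoxd13 and Insl5 summed to 0.205 and 1.57 CPM in KO and 0.898 and 5.71 CPM in WT. The small-intestinal genes Apoa1, Sis, Lct, Gata4 and Fabp6 summed to 8970 and 9890 CPM in KO and 13700 and 7240 CPM in WT. Apoa1, Sis, Lct and Gata4 were each lowest in WT replicate 2, while Fabp6 was highest there. Gata4 was at 156 and 165 CPM in KO and 134 and 27.3 CPM in WT. Fabp6 was at 894 and 118 CPM in KO and 422 and 2450 CPM in WT. The part of these differences in those of Kit and Ret was not tested. The epithelial genes, such as Epcam, Cdh1 and Krt8, summed to 11400 to 15200 CPM in the 4 libraries. In RNA pooled from many cells, fewer cells of a type and less RNA per cell cannot be told apart.

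Sequences are shown for the transcripts that the length values below turn on. Mst1r lies on chromosome 9 of GRCm38, the assembly also called mm10, from 107906858 to 107920383. The RefSeq promoter table (GRCm38.p6, plus strand) holds 2 transcription start windows for it. The first has its start at 107906889, near the start of the full-length gene. The other start is 8114 bases further in, after exon 10 of the GENCODE transcript that matches NM_009074. Each window runs from 250 bases before its start to 50 bases after it, and the capitals mark the bases from that start on. In the first window the lower-case bases from 107906858 on also lie within the gene bounds given above.
Mst1r full-length start, chr9:107906639-107906938: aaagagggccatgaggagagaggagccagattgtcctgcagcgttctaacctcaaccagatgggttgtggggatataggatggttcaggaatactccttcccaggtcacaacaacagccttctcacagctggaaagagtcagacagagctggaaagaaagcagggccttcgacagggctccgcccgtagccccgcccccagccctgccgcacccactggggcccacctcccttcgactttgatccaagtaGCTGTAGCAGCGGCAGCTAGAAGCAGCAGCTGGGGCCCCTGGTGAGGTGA
Mst1r internal start, chr9:107914753-107915052: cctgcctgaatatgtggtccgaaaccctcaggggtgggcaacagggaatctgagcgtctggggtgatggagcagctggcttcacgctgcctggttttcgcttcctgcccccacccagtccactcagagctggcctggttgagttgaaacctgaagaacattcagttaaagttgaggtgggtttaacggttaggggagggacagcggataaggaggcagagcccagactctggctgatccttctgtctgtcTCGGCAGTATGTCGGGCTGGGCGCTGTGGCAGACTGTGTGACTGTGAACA
In the mouse a short form of the receptor, which lacks most of the part outside the cell, is known to be made from an internal promoter of Mst1r.

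The 2 Kit transcripts of the deposited tables differ at the end of exon 9. In the GENCODE transcripts that match them, an insertion of 12 bases is present in NM_001122733 and absent from NM_021099, just before the membrane-spanning part of the protein. The stretch below covers the junction of exons 9 and 10, from 15 bases before the insertion to 15 bases after it, at chromosome 5, 75639132 to 75640507 on the plus strand, and the capitals mark the insertion.
Kit with the insertion: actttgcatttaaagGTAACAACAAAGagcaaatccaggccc
Kit without the insertion: actttgcatttaaagagcaaatccaggccc

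Kit was lower in KO. Its expected counts were 118 and 169 in KO replicates 1 and 2, and 472 and 729 in WT replicates 1 and 2. In CPM these came to 8.06 and 11.5 in KO, against 30.3 and 47.3 in WT, so the higher KO library stood below the lower WT library. The mean was 9.79 ± 2.44 CPM in KO and 38.8 ± 12 CPM in WT (SD, n = 2 each), which leaves 25.2% of the WT level. As FPKM, fragments scaled to transcript length and sequencing depth, Kit was at 1.47 and 2.33 in KO and 5.95 and 9.29 in WT. The fitted log2 fold change was -1.99 (SE 0.33), and between libraries of the same replicate number the log2 ratio of CPM was -1.91 for replicate 1 and -2.04 for replicate 2. Kit lies on chromosome 5 from 75574987 to 75656722.

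Kitl encodes stem cell factor, the membrane-bound or secreted ligand of KIT. It stood at 93.7 and 82.7 CPM in KO and 91.2 and 96.5 CPM in WT, so the genotypes overlapped. Its fitted log2 fold change was -0.09 (SE 0.19), and 94.0% of the WT mean was found in KO. Per length, the ligand was the more abundant of the pair in every library. The ratio of Kitl to Kit FPKM was 11.0 and 6.85 in KO and 2.87 and 1.94 in WT. Kitl lies on chromosome 10 from 100015615 to 100100416.

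Ret was also lower in KO, and its level differed between the 2 WT libraries. Its expected counts were 27 and 30 in KO, and 421 and 101 in WT replicates 1 and 2. These came to 1.84 and 2.04 CPM in KO, against 27.0 and 6.55 CPM in WT. The KO libraries lay close together and below both WT libraries, while WT replicate 1 was 4.12 times WT replicate 2. The mean was 1.94 ± 0.142 CPM in KO and 16.8 ± 14.5 CPM in WT (SD, n = 2 each), and the fitted log2 fold change was -3.10 (SE 0.73). Without WT replicate 1 the log2 fold change was -1.77. By replicate number the log2 ratio of CPM was -3.87 for replicate 1 and -1.68 for replicate 2. In FPKM, Ret stood at 0.24 and 0.29 in KO and 3.75 and 0.91 in WT, the lowest of the 6 genes in each library. Ret lies on chromosome 6 from 118151748 to 118197744.

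**Figure D1:**
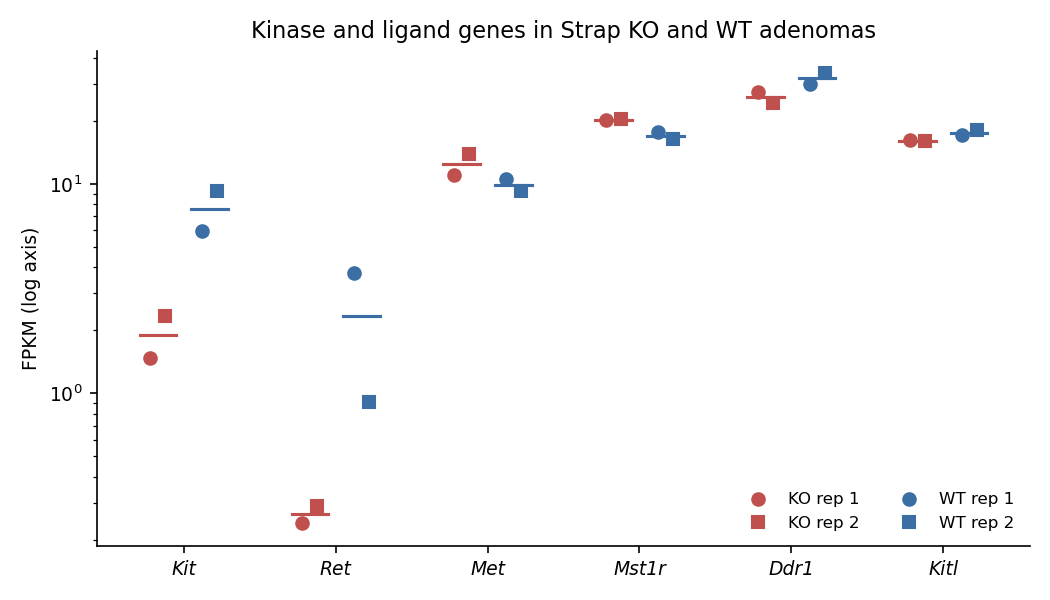
FPKM of the 6 genes on a log axis, with KO (red) left of WT (blue), circles for replicate 1, squares for replicate 2 and bars for group means. Kit at 1.47 and 2.33 FPKM in KO against 5.95 and 9.29 in WT, and Ret at 0.24 and 0.29 against 3.75 and 0.91, are set apart by genotype, while the values of the other 4 genes lie closer together.

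Met stood slightly higher in KO. Its counts were 1136 and 1298 in KO and 1078 and 928 in WT, or 77.6 and 88.5 CPM in KO against 69.2 and 60.2 CPM in WT. The KO values were both above the WT values, by a fitted log2 fold change of 0.36 (SE 0.20). The mean was 83.0 ± 7.68 CPM in KO and 64.7 ± 6.33 CPM in WT (SD, n = 2 each). In FPKM, Met was at 10.98 and 13.96 in KO and 10.58 and 9.21 in WT. Met lies on chromosome 6 from 17463349 to 17573980.

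Ddr1, the collagen receptor gene, stood slightly lower in KO. It was at 107 and 85.0 CPM in KO and 109 and 121 CPM in WT, a fitted log2 fold change of -0.26 (SE 0.21). The KO values were both below the WT values, with KO replicate 1 close to WT replicate 1. Per length it was the highest of the 6 in each library, with 27.45 and 24.36 FPKM in KO and 30.12 and 33.78 FPKM in WT. Ddr1 lies on chromosome 17 from 35681567 to 35704741.

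Across the 4 libraries the order of FPKM was led by Ddr1 and closed by Ret. Mst1r came next after Ddr1 in both KO libraries and WT replicate 1, ahead of Kitl, and in WT replicate 2 Kitl came before Mst1r, at 18.06 against 16.32 FPKM. Met stood above Kit in both KO libraries and in WT replicate 1, and just below it in WT replicate 2, at 9.21 against 9.29 FPKM. Mst1r and Kitl in WT, at 17 ± 0.94 and 17.6 ± 0.707 FPKM (SD, n = 2), did not differ beyond their spread, nor did Met and Kit in WT, at 9.89 ± 0.969 and 7.62 ± 2.36 FPKM. In KO, Met averaged 12.5 ± 2.11 FPKM and Kit 1.90 ± 0.608 FPKM, and these did not overlap.

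Read as calls, 0 of the 6 genes passed edgeR's quasi-likelihood test at a Benjamini-Hochberg adjusted p under 0.05 over 12769 genes, and 2 passed in DESeq2, Kit and Ret, both lower. The test called 0.00783% of all genes in edgeR and 5.03% in DESeq2, and since the genes were chosen with these values known, nothing is read from the counts. Strap itself, at 16.9% of its WT mean, did not pass edgeR (adjusted p = 0.0942) and passed DESeq2 (adjusted p = 8.42e-14). In edgeR 2 of the 6 had an unadjusted p under 0.05, again Kit and Ret, where 8.69% of all genes were lower at that level. Both KO libraries were below both WT libraries in CPM for Kit, Ret and Ddr1 and above them for Met. That order alone sets no gene apart, since it was found for 24.6% and 25.5% of all tested genes.

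Mst1r gave different pictures as counts and as FPKM. Its counts were 872 and 836 in KO and 933 and 797 in WT, or 59.6 and 57.0 CPM in KO against 59.9 and 51.7 CPM in WT, and the genotypes overlapped (fitted log2 fold change 0.06, SE 0.19). In FPKM it stood at 20.13 and 20.43 in KO and 17.65 and 16.32 in WT, without overlap, a log2 ratio of means of 0.26. Between the 2 scales stands the mean transcript length that the deposited tables give for each gene and library, which weights a gene's transcripts by their estimated abundance.

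That mean length was 2820.54 and 2966.53 bases for Mst1r in KO, against 3480.13 and 3260.26 bases in WT. Both KO values were shorter than both WT values. The mean was 2894 ± 103 bases in KO and 3370 ± 155 bases in WT (SD, n = 2 each), so KO stood at 85.9% of WT. The full-length GENCODE transcripts that match NM_009074 and NR_109782 measure 4722 and 4717 bases, and the exons of the first hold 1789 bases beyond the internal start printed above. Means of 2820.54 to 3480.13 bases therefore cannot come from those 2 transcripts alone and carry weight of a shorter one. The third transcript of the tables, NM_001287261, has no GENCODE match here, so its share was not computed.

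This measure was singled out after its values were seen, and it was not used to choose the genes. Among 3351 genes with more than 1 transcript and at least 50 counts in each library, both KO libraries were shorter than both WT libraries in 19.2%, and 0.567% had a log2 length ratio as low as that of Mst1r, -0.22, or 0.627% when ratios of that size in either direction are counted. With 2 libraries per genotype an exact permutation test could not fall below a p of 0.333 (two-sided), and none is given. The lengths are RSEM estimates, and the spread of reads along the transcript, which also moves them, cannot be seen in the deposited tables.

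**Figure D2:**
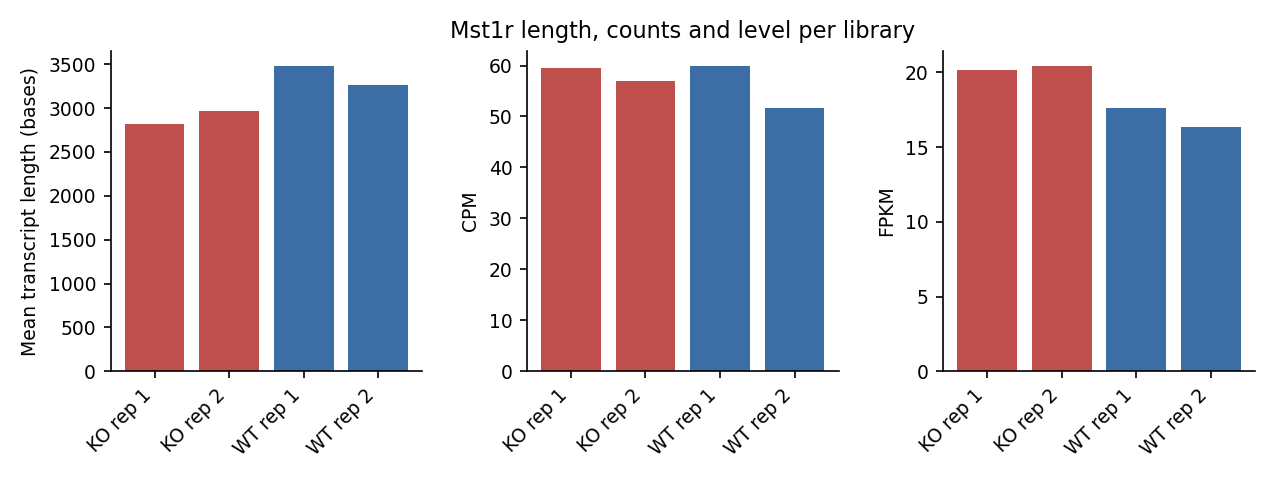
Mst1r in each library, KO (red) left of WT (blue), as mean transcript length in bases, CPM and FPKM, with bars from 0. Mean length is 2820.54 and 2966.53 bases in KO and 3480.13 and 3260.26 bases in WT, while CPM overlaps and FPKM does not.

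The other genes showed no length difference of that size. Kit ranged from 5189 bases in KO replicate 1 to 5197.84 bases in KO replicate 2, with 5191.5 and 5194.5 bases in WT, so the WT values lay between the KO values. If the 2 Kit transcripts differ in length only by the 12-base insertion printed above, their mean could not range over more than 12 bases. The range of 8.84 bases, set by the KO libraries, is not small on that scale. The 2 genotypes had the same mean length, 5193 bases, and the share of each Kit transcript was not computed. Ddr1, with 4 transcripts, spanned 11.29 bases over the 4 libraries. Ret, with 2 transcripts, was at 7341 bases in both KO libraries and in WT replicate 2 and at 7321.06 bases in WT replicate 1. Met and Kitl have 1 transcript each in the tables.

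Genes of the same pathways were taken as 8 lists by role, with 117 entries, of which 109 were listed in at least 1 library and 77 were tested in edgeR. No gene of them passed edgeR in either direction. DESeq2 tested more of the listed genes than these 77. In it 8 passed, 1 of them higher and 7 lower in KO, where 1.77% of all genes were higher and 3.26% lower. Of the 8, Pdgfra is not among the 77. At an unadjusted edgeR p under 0.05 there were 17 lower and 1 higher, against 8.69% and 7.08% of all genes. Of the 77 tested 58 had a fitted log2 fold change below 0, against 49.7% of all genes. The same shares of all genes stand beside the counts of each list below.

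Ligands and co-receptors were scarce in every library. Of 11 listed, 4 passed the filter on low counts, and all 4 had lower fitted values in KO, with a median log2 fold change of -1.30 beside 0.00 for all genes, although Hgf and Nrtn turn to the other sign without 1 of the WT libraries. Hgf, the MET ligand gene, was at 0.888 and 0.750 CPM in KO and 0.706 and 3.24 CPM in WT (log2 fold change -1.26, edgeR adjusted p = 0.519). Mst1, which encodes the MST1R ligand, was at most 0.478 CPM and was not tested. Among the RET ligands, Nrtn, the neurturin gene, was at 3.42 and 0.886 CPM in KO and 5.20 and 1.88 CPM in WT, while Gdnf was listed only in KO replicate 1 and Artn only in WT replicate 1. Gfra3, the co-receptor gene for artemin, was at 0.478 and 1.16 CPM in KO and 1.15 and 2.98 CPM in WT, and Gfra1 was at most 0.449 CPM. Gdf15, a stress-induced gene whose product signals through GFRAL and RET, had the smallest p of the list (log2 fold change -2.74, edgeR adjusted p = 0.271), and ranged from -3.71 without KO replicate 2 to -1.91 without WT replicate 1. Gfra3 ranged from -2.11 without KO replicate 2 to -0.49 without WT replicate 2.

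The collagen genes were low except for Col4a1 and Col4a2 in WT replicate 1. The sum over the list was 0.751 and 1.98 CPM in KO, and 38.0 and 1.82 CPM in WT replicates 1 and 2. In WT replicate 1 Col4a2 was at 11.2 CPM, and the highest of the other collagen genes there, apart from Col4a1, was Col3a1 at 1.92 CPM. Col4a1, which encodes a chain of basement membrane collagen, was the 1 tested gene of the list, at 0.137 and 0.136 CPM in KO and 21.0 and 0.779 CPM in WT. It passed DESeq2 (adjusted p = 0.000316) and not edgeR (adjusted p = 0.227). Its log2 fold change was -6.23 with all libraries and -2.46 without WT replicate 1.

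Proteases and inhibitors that set the activity of the MET and MST1R ligands were abundant for the epithelial members. St14, the matriptase gene, was at 521 and 432 CPM in KO and 423 and 311 CPM in WT (log2 fold change 0.38, edgeR adjusted p = 0.529). Spint1 and Spint2 encode inhibitors of such proteases. Spint1 had a log2 fold change of 0.27 and Spint2 of 0.05. Hgfac, the gene of the HGF activator protease, was at 18.4 and 22.7 CPM in KO and 35.9 and 51.8 CPM in WT, a log2 fold change of -1.09 (SE 0.27), and passed DESeq2 (adjusted p = 0.0403) and not edgeR (adjusted p = 0.211). Hpn (-2.10) and Klkb1 (-1.61), genes of the proteases hepsin and plasma kallikrein, had few counts and did not pass either test. Without WT replicate 1 Hpn was at -0.78, and without KO replicate 2, which does not list it, Klkb1 was at -0.64. The list's median was -0.10 over 7 tested genes.

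The 9 membrane partners of MET had a median of -0.23 on the log2 scale, with 7 of them below 0. Plxnb1, a semaphorin receptor gene, was at 7.58 and 7.02 CPM in KO and 38.4 and 12.5 CPM in WT (log2 fold change -1.80, SE 0.55), and passed DESeq2 (adjusted p = 0.0395) and not edgeR (adjusted p = 0.254). Without WT replicate 1 its value was -0.79. The integrin genes Itga6 (-0.41) and Itgb4 (-0.36), and the tetraspanin gene Cd151 (0.36), did not pass in either test, and Itgb4 had the other sign without WT replicate 1.

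Adaptors and signalling enzymes stood near the median of all genes, at -0.06 over 20 tested genes, with 9 above 0 and 11 below. Crk, which encodes an SH2 and SH3 domain adaptor, was the 1 gene of the 8 pathway lists that was higher and passed DESeq2 (adjusted p = 0.0131). It was at 287 and 262 CPM in KO and 163 and 139 CPM in WT, a log2 fold change of 0.86 (SE 0.22, edgeR adjusted p = 0.212). Grb7 (-0.69), an adaptor gene, Gab1 (-0.47), the docking protein gene best known downstream of MET, and Pik3r1 (-0.40), a PI3K regulatory subunit gene, lay below 0 and did not pass. Genes that restrain receptor kinases had a median of -0.51 over 11 tested genes, 9 of them below 0 and 0 called by edgeR or DESeq2, with 1 at an unadjusted edgeR p under 0.05. Cbl, the ubiquitin ligase gene that sends activated receptors to degradation, was at 9.08 and 22.7 CPM in KO and 29.3 and 29.7 CPM in WT (edgeR adjusted p = 0.380). The phosphatase genes Ptpn6 (-0.58) and Ptprf (-0.51) and the Cbl-binding adaptor gene Sh3kbp1 (-1.93) did not pass. With 1 library left out, Sh3kbp1 ranged from -2.49 (without WT replicate 2) to -1.0 (without WT replicate 1), and Cbl from -1.72 (without KO replicate 2) to -0.38 (without KO replicate 1).

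**Figure D3:**
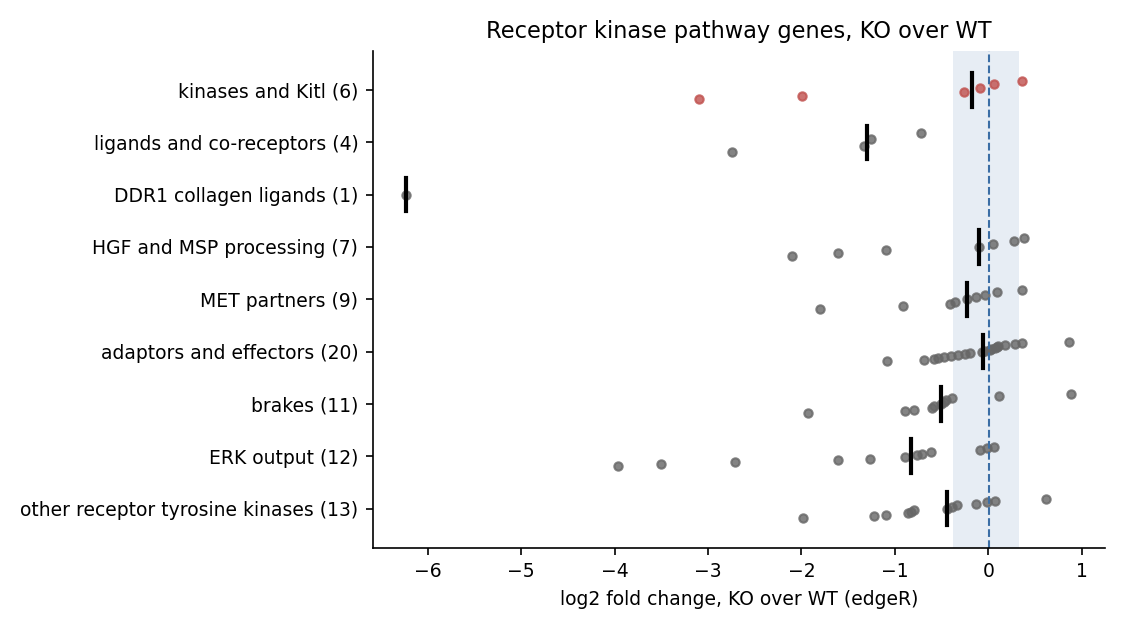
Fitted log2 fold change, KO over WT, for the 6 genes (red) and the tested genes of each list (grey, number tested in parentheses), with a black bar at each median. The dashed line and band are the median and quartiles of all 12769 genes, 0.00, -0.38 and 0.33, and the ERK output genes have a median of -0.82.

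Genes that ERK signalling is known to induce lay lower, with a median of -0.82 on the log2 scale for 12 tested genes. Of these 11 were below 0, against 49.7% of all genes. In edgeR 0 passed and 6 had an unadjusted p under 0.05, all lower, against 8.69% of all genes. DESeq2 tested 13 of the list and called 2, both lower, against 3.26% of all genes. Phlda1 was at 14.8 and 16.8 CPM in KO and 56.8 and 39.1 CPM in WT, a log2 fold change of -1.61 (SE 0.26, edgeR adjusted p = 0.131, DESeq2 adjusted p = 0.000264). Etv5, a transcription factor gene known to act downstream of RET and FGF receptors, was at 1.98 and 3.54 CPM in KO and 56.4 and 6.36 CPM in WT (-3.50, edgeR adjusted p = 0.244, DESeq2 adjusted p = 0.0018). Without WT replicate 1 its value was -1.22. Spred2, an inhibitor gene of the pathway, was at 20.4 and 22.6 CPM in KO and 36.4 and 33.9 CPM in WT (-0.71, edgeR adjusted p = 0.247). The feedback inhibitor genes Dusp6 (-0.01), Spry2 (-0.09) and Dusp5 (0.06) had values near 0 and overlapped between the genotypes. By replicate number 12 of the 12 genes were lower in KO for replicate 1 and 7 were lower for replicate 2.

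WT replicate 1 stood apart on this list. Egr1, an immediate early gene, was at 12.8 and 13.2 CPM in KO, and at 387 and 16.7 CPM in WT replicates 1 and 2, and its log2 fold change of -3.96 became -0.38 without WT replicate 1. The whole list summed to 151 and 176 CPM in KO, and to 731 and 209 CPM in WT. Ret had the same order of libraries, and the part of that library in the low Ret of KO was not tested beyond the value without it.

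**Figure D4:**
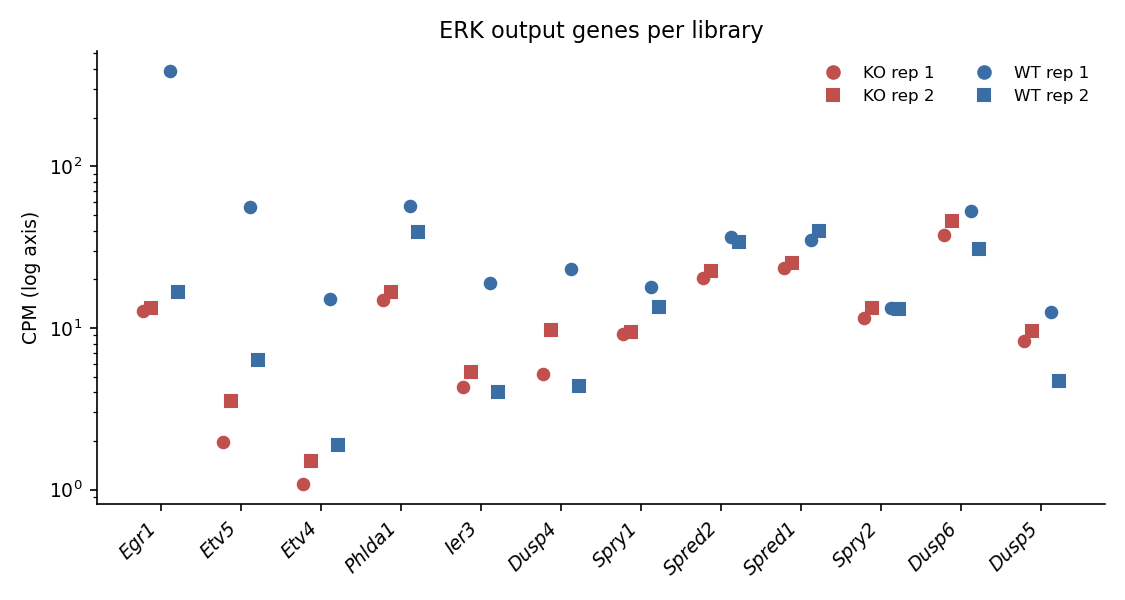
CPM of the 12 tested ERK output genes on a log axis, ordered by log2 fold change, with KO (red) left of WT (blue), circles for replicate 1 and squares for replicate 2. Egr1 at 387 CPM and Etv5 at 56.4 CPM in WT replicate 1 stand far above the other 3 libraries, whereas Phlda1 and Spred2 are higher in both WT libraries.

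Among 26 other listed receptor tyrosine kinases, 13 were tested, with a median of -0.44 and 11 below 0. Fgfr4, an FGF receptor gene, was at 7.31 and 4.63 CPM in KO and 27.1 and 20.2 CPM in WT, a log2 fold change of -1.98 (SE 0.36) that passed DESeq2 (adjusted p = 0.000345) and not edgeR (adjusted p = 0.148). Fgfr2 (-0.83) and Fgfr3 (-1.10) were likewise lower in both KO libraries than in both WT libraries and did not pass. Mertk, a receptor gene for the clearance of dying cells, was at 41.6 and 31.2 CPM in KO and 72.1 and 53.9 CPM in WT (-0.79, edgeR adjusted p = 0.262). Among the receptors nearest to KIT in structure, Pdgfrb was at 5.12 and 4.29 CPM in KO and 2.18 and 7.33 CPM in WT, with a log2 fold change of -0.01. Pdgfra was at 0.0683 CPM in KO replicate 1 and absent from the table of KO replicate 2, against 5.45 and 0.324 CPM in WT. It passed DESeq2 (adjusted p = 0.0402) and was removed by the low-count filter in edgeR. Flt3 was at most 0.477 CPM and Csf1r at most 1.67 CPM, and Ddr2, the relative of Ddr1 in connective tissue, was at most 0.449 CPM.

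Markers of the cells that Kit is known from were set beside it. Mast cell genes other than Kit summed to 39.1 and 5.11 CPM in KO and 14.2 and 24.3 CPM in WT, mostly Mcpt1 and Mcpt2. The sums overlapped between the genotypes, with the highest in a KO library, and the defining genes Cpa3, Fcer1a, Ms4a2 and Tpsb2 were each at most 1.09 CPM. Markers of the interstitial cells of Cajal summed to 8.33 and 11.7 CPM in KO and 46.1 and 38.5 CPM in WT, without overlap. That order was found for 24.6% of all tested genes taken singly. Of these markers Adgrd1 was at 2.53 and 4.63 CPM in KO and 21.5 and 29.1 CPM in WT (DESeq2 adjusted p = 3.94e-07, edgeR adjusted p = 0.105). Ano1 was at 5.33 and 5.52 CPM in KO and 22.7 and 7.07 CPM in WT, while Etv1 was at most 1.29 CPM. Smooth muscle genes summed to at most 4.88 CPM. The part of these cells in the Kit difference was not tested.

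Secretory and tuft cell genes were set beside Kit as well. Reg4, a marker of Kit-positive deep crypt secretory cells in the mouse colon, was at 35.8 and 17 CPM in KO and 79.5 and 198 CPM in WT. Its log2 fold change was -2.40 (edgeR adjusted p = 0.199, DESeq2 adjusted p = 0.000305). It was the 1 gene of the goblet and deep crypt secretory list that passed DESeq2, and that list had 3 of 10 genes above 0, 7 below and a median of -0.26. Paneth cell genes summed to 15900 and 9540 CPM in KO and 12100 and 34600 CPM in WT, with a median of -0.95 and all 12 genes below 0, against 49.7% of all tested genes. By replicate number 9 of the 12 were higher in KO for replicate 1 and 12 were lower in KO for replicate 2, with WT replicate 2 the highest library in the sum. The Paneth sums overlapped between the genotypes, as did those of the goblet and deep crypt secretory list, at 9420 and 9640 CPM in KO and 6030 and 16800 CPM in WT. Tuft cell genes summed to 28.9 and 7.90 CPM in KO and 81.7 and 135 CPM in WT, without overlap. Taken singly, 24.6% of all tested genes had both KO libraries below both WT libraries. The part of tuft cells in the Kit difference was not tested.

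For Ret the neural markers were near 0. Genes of enteric neurons and glia summed to 2.19 and 2.45 CPM in KO and 5.71 and 2.53 CPM in WT, and Sox10, Chrna3 and Gfap were listed in no library. Enteroendocrine genes, of another lineage that can express Ret, summed to 212 and 336 CPM in KO and 197 and 271 CPM in WT, with 5 of 16 tested genes above 0, 11 below and a median of -0.42. Chga, the chromogranin A gene, was at 82.8 and 114 CPM in KO and 48.2 and 52.7 CPM in WT (log2 fold change 0.96), and passed DESeq2 (adjusted p = 0.0317) and not edgeR (adjusted p = 0.209). Endothelial genes summed to 2.94 and 3.34 CPM in KO, and to 42.6 and 4.54 CPM in WT, where Cdh5 made up most of the sum in WT replicate 1. That sum was highest in the library where Ret was highest, but the list was not uniform. Vwf was also highest there, at 4.81 CPM, and Emcn was at most 0.0642 CPM. Pecam1 was highest in KO replicate 2, at 1.29 CPM, Tie1 in KO replicate 1 and Esam in WT replicate 2. The part of these cells in the Ret difference was not tested.

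**Figure D5:**
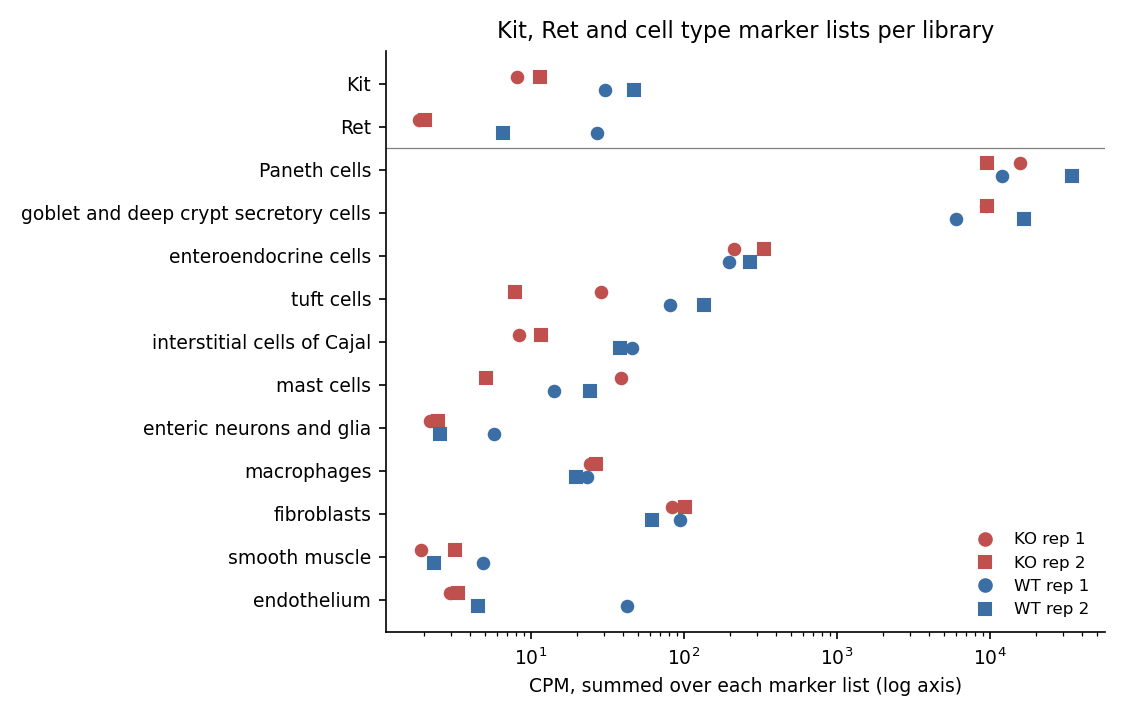
CPM of Kit and Ret (above the line) and summed CPM of 11 cell type marker lists (below it) on a log axis, KO (red) above WT (blue), circles for replicate 1 and squares for replicate 2. Tuft cell, interstitial cell of Cajal, endothelial and enteric neuron lists are lower in both KO libraries than in both WT libraries, an order found for 24.6% of all tested genes. The enteric neuron list hardly differs in replicate 2, at 2.45 CPM in KO and 2.53 CPM in WT. The enteric neuron and smooth muscle lists stay at or below 5.71 CPM.

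Genes most alike in pattern over the 4 libraries were taken for each of the 6, among 11629 genes. The measure was the root mean square distance of log2(CPM + 0.5), centred on its mean over the 4 libraries. With 4 libraries such likeness is a description alone. Nearest to Kit were Rgcc, Igdcc4 and Proc, at distances of 0.0662 to 0.0989. Igdcc4, for example, was at 1.84 and 2.73 CPM in KO and 6.67 and 12.6 CPM in WT. Nearest to Ret were Fam124a, Rbms3 and Lrrn1, each at most 0.0683 CPM in KO and between 0.779 and 5.90 CPM in WT. In KO these and Rgcc, at 0.0683 and 0.341 CPM, lay below the added 0.5, while Kit and Ret lay above it. Their small distances therefore do not mean that their fold differences are alike. Nearest to Met were Maml1, Lipe and Lyrm5, nearest to Mst1r were Vps53, Ppp2r5b and Upf2, nearest to Ddr1 were Cacna1d, Aaed1 and Tor4a, and nearest to Kitl were Grhl2, Glyr1 and Smad1, all at distances of at most 0.0255.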

How the data were processed

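Bowtie2 2.2.5, RSEM 1.2.12 and the build mm10 are named, without role or order, in the submitters' processing notes. The deposited tables hold, for each gene and library, an RSEM expected count, as their headers name it. FPKM and a transcript length are further deposited columns. No table lists an FPKM below 0.01, and a gene that a table lacks (not listed) was entered as a count of 0. No source used here states the strandedness. Met and Ddr1 overlap other RefSeq genes, which are listed in no library.

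The tables were joined on gene identifier with pandas 2.3.3. In each library 1 row without a gene, at most 0.000233% of counts, was left out, and expected counts were rounded. KO and WT libraries were fitted with edgeR 4.0.16 (quasi-likelihood, TMM scaling, filterByExpr leaving 12769 genes) under R 4.3.3, with Benjamini-Hochberg adjustment over all of these genes and calls under 0.05. TMM factors were 0.9365 to 1.043 and the biological coefficient of variation was 32.5%. The labels do not say that libraries came from separate animals. By Xist and Ddx3y the 2 libraries of each genotype differed in sex, so they were not technical repeats of 1 animal. A p reflects only the spread of these libraries, which includes any difference between the sexes.

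The 6 genes and the lists were chosen with earlier results of these data known. Named are the 6 genes, Strap, the 4 tested genes of each pathway list with the smallest p, the 3 markers of a list with the highest FPKM where useful, and the 3 genes nearest in pattern. Others were chosen after their values were seen, and 1 marker list is not reported here. Alternatives were DESeq2 1.42.0, limma 3.58.1 on log2(FPKM + 1) and log2(FPKM + 0.1), size factors of DESeq2 in edgeR, scaling by library size, no low-count filter, a minimum of 50 counts in 2 libraries, the replicate number as a block, and leaving out each library. Coordinates are those of RefSeq and GENCODE annotations of GRCm38.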

Additional observations from a re-analysis of the deposited data

How the results depend on the processing

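Over all genes edgeR called 1 higher and 0 lower in KO. It called 0 higher with library size alone, 19 higher and 8 lower with no filter, and 0 higher in limma on both FPKM scales, while DESeq2 called 235 higher and 432 lower. Leaving out each library in turn gave 0 to 41 higher and 0 to 133 lower, the largest counts without WT replicate 2. The lone library then left in a genotype is assumed to vary like the other genotype's. With the replicate number as a block, edgeR called 46 higher and 70 lower. The labels do not say that numbers pair libraries, and the deviations of same-numbered libraries had a correlation of -0.13 across genes. By Xist and Ddx3y the replicate number went with sex in both genotypes, so that block also separates the sexes. Leaving out 1 library likewise leaves its genotype with 1 sex. A crossed pairing, chosen after seeing the data, gave 65 higher and 99 lower in a crossed replicate block. The cause was not tested.

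The log2 fold change of Kit lay between -2.29 and -1.63 when a library was left out, and was -1.56 in limma on log2(FPKM + 1). For Ret the range was -3.79 to -1.77, with -1.25 on log2(FPKM + 1), where the pseudocount is large beside its level. Mst1r lay between -0.04 and 0.16, so its sign was not fixed, and was 0.24 and 0.26 in limma on log2(FPKM + 1) and log2(FPKM + 0.1), scales that divide by its length. Met stayed between 0.24 and 0.45, Ddr1 between -0.44 and -0.13 and Kitl between -0.18 and -0.02. With a library left out, Hgf ranged from -1.99 to 0.21 (0.21 without WT replicate 2), Nrtn from -1.99 to 0.17 and Itgb4 from -0.68 to 0.03 (0.17 and 0.03 without WT replicate 1), so their signs reversed. Across settings the median over all genes was -0.05 to 0.02. With 2 libraries per genotype, small differences such as those of Met and Ddr1 are not resolved.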
